A study of Mus musculus with 14 samples.

Results

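Accessible chromatin was described at 7 genes of the immediate-early and growth response, Fos, Jun, Junb, Egr1, Myc, Pim1 and Deptor, in mouse liver with and without a pulse of growth hormone (GH). Every peak that overlapped the body of one of these genes, or lay within 20 kb of it on either side, was kept, and overlapping peaks of the 14 libraries (1 bp or more in common) were joined into regions. This gave 42 member regions of 48148 in all. The regions were chosen by the peak calls of these same 14 libraries, and the genes with earlier results of these data known, including that Pim1 and Deptor held peaks seen after GH. The calls and peak heights below are therefore a description, and no test was run on them.

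Immediate-early genes are switched on within minutes of a hormone or growth factor signal without new protein being made. Fos, Jun and Junb encode subunits of the AP-1 transcription factor, Egr1 a zinc finger transcription factor, and Myc a transcription factor that drives growth and cell division. Pim1 encodes a serine/threonine kinase that is a known target of STAT5 in blood cells, and Deptor encodes an inhibitory subunit of the mTOR kinase complexes. In liver, GH binds its receptor and activates the kinase JAK2, which phosphorylates STAT5, while the ERK branch of the same receptor reaches Fos and Egr1 through serum response factor at CArG boxes.

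DNase-seq was done on livers of CD-1 (ICR) mice, 7 weeks old, in 14 libraries. There were 4 libraries of pituitary-intact females, 2 of hypophysectomized (hypox) females, 2 of hypox males without GH, and 2 each of hypox males killed 30, 90 or 240 min after 1 intraperitoneal injection of recombinant rat GH at 125 ng per g body weight. All male libraries thus came from mice without a pituitary, and intact males were not analysed here. The supplier removed the pituitary, and the labels do not state whether males without GH received vehicle. Each library was a pool of 3 livers, except hypox female pool 1 with 2, so a pool is the replicate. With 2 pools against 2, an exact two-sided test cannot give a p below 0.333. A code in the titles read G103 for the pair of untreated male pools, G93 for pools 3 and 4 of the intact females, and G92 for the 10 remaining libraries, so among males the effect of GH cannot be told apart from this code. Hypox females, which carry G92, served as a second control, against which the effect of GH cannot be told apart from sex.

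Depth ran from 13078268 to 33700120 tags and lists from 17691 to 35851 peaks. Both untreated male pools, at 17419756 and 33700120 tags, were deeper than every GH pool. Intact female pool 3 stood apart, since 14.9% of its called regions lay within 1 kb of a gene start against 25.0 to 42.1% in the others. It lacked a call at 5 of the 7 start regions of the genes described here. Each male library held 63 to 91 peaks on Y, and each female library 1 to 3. Of the hepatocyte markers, 7 of 8 had a region in the same window, all 7 of them with 1 called in every library. No stellate or Kupffer marker had a region in all 14, although 4 of 6 endothelial, 1 of 4 lymphocyte and 1 of 4 cholangiocyte markers did. Peak height cannot tell fewer cells of a type from less open chromatin per cell, and the part of other cell types in the values was not tested.

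Of the 42 member regions, 8 were called in all 14 libraries (19.0%, against 15.4% of all regions) and 19 in all 8 male libraries (45.2% against 26.1%). The remainder varied between libraries, with 5 called in 1 library only. Deptor, whose body spans 146955 bp, held 17 regions, Junb 9, Pim1 6, Egr1 4, and Fos, Jun and Myc 2 each. Regions within 1 kb of any gene start made up 26.2% of members and 22.2% of all regions, and the median width was 616 bp against 498 bp. A region is named below by its gene and the distance of its summit from that gene's start, counted along the gene's strand. Pileup is the number of extended tags stacked at a peak's summit, and fold enrichment is the same signal over the local background. Both are the authors' value for each peak. The 20 kb limit fell close to 1 result, since the edge of Pim1 -20.2 kb lay 19964 bp from the gene, and the next region beyond the limit, at 20.7 kb, was called in 4 libraries with a mean fold of 5.07.

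**Figure D1:**
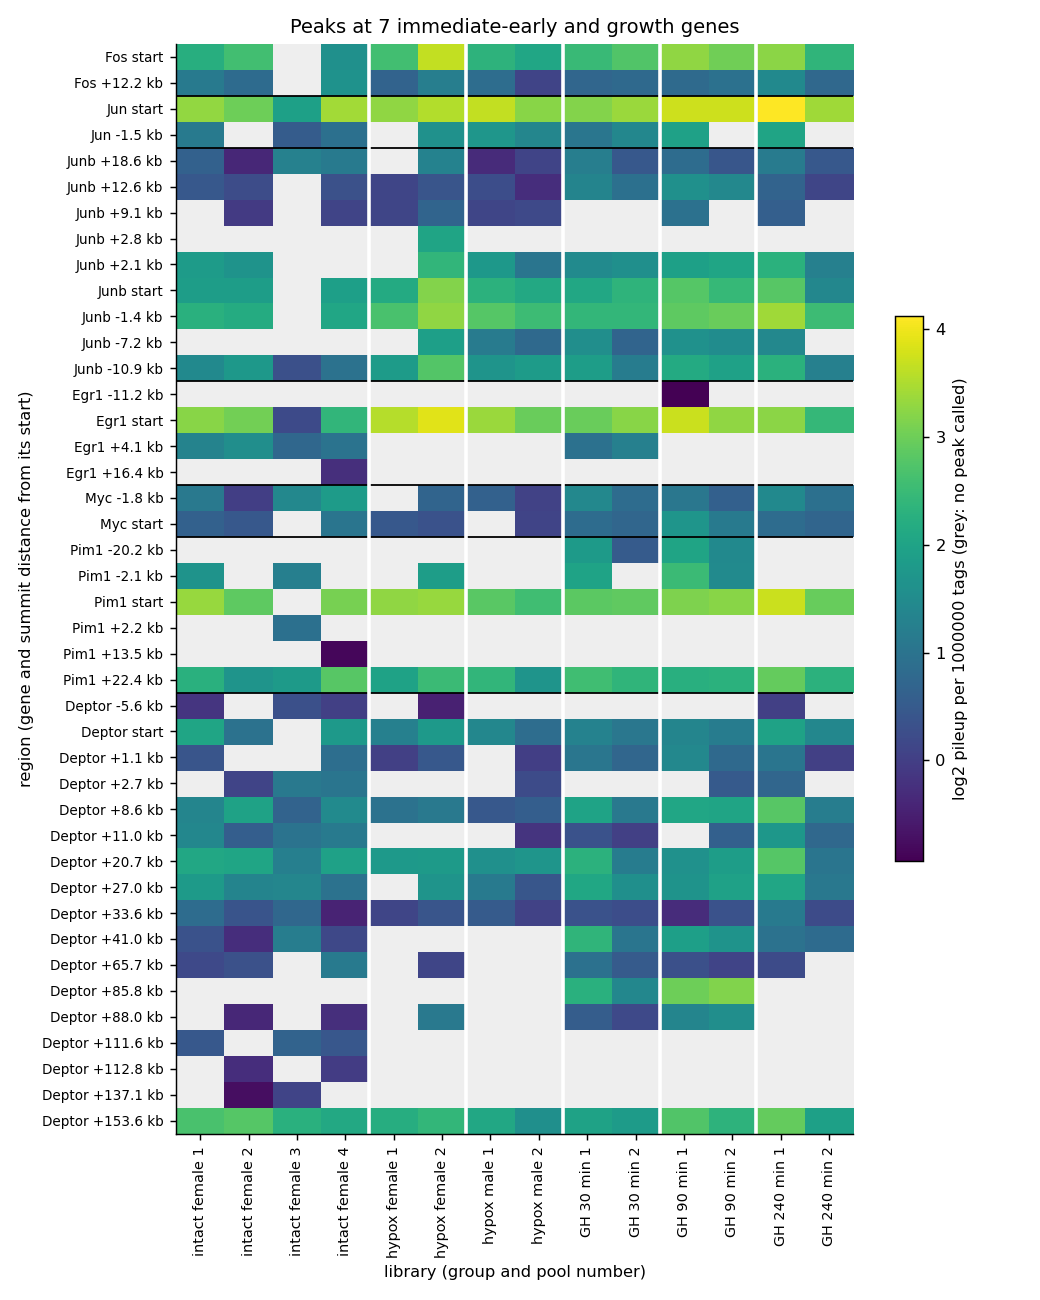
Pileup per 1000000 tags (log2, colour) of the 42 member regions (rows, by gene) in the 14 libraries (columns, by group and pool), with grey for no called peak. Start regions were called in nearly every library, whereas Pim1 -20.2 kb and Deptor +85.8 kb were called only 30 and 90 min after GH.

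The sequences of 4 regions called in both GH pools of at least 1 time and in no untreated male pool are shown because they differ in whether a STAT5 consensus lies at the summit. Each line gives 200 bases around the highest summit, plus strand, build mm9, with matches to the STAT5 consensus TTCNNNGAA in capitals. They lie at chr15:55029594-55029793, chr17:29625571-29625770, chr17:29607416-29607615 and chr15:54984806-54985005 in this order.
Deptor +85.8 kb: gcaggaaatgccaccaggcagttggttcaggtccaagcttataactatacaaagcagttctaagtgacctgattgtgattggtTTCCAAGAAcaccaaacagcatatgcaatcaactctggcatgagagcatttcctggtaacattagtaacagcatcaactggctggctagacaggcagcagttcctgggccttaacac
Pim1 -2.1 kb: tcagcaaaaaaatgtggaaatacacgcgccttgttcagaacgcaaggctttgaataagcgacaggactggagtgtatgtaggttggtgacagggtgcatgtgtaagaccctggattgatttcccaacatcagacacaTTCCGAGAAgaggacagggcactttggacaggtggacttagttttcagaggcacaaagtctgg
Pim1 -20.2 kb: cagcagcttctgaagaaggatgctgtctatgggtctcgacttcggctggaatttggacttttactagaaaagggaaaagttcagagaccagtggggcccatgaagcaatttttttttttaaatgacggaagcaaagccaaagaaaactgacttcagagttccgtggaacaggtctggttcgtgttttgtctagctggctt
Deptor +41.0 kb: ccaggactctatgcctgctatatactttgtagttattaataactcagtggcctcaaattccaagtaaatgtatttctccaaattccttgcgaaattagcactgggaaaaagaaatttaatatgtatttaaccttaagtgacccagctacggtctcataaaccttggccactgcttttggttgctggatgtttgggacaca
The match at Deptor +85.8 kb, TTCCAAGAA, was centred 12 bp before the summit, and that at Pim1 -2.1 kb, TTCCGAGAA, 42 bp after it. Pim1 -20.2 kb and Deptor +41.0 kb held no match in this window, which says only that these letters are not there.

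The first comparison asked which member regions were called in both GH pools and in neither untreated hypox male pool. At 30 min there were 6 such regions, at Deptor (4), Pim1 (1) and Egr1 (1), which is 14.3% of members against 3.33% of all regions. At 90 min there were again 6, at Deptor (4) and Pim1 (2), against 3.79% of all regions. At 240 min only Deptor +41.0 kb was called in this way, 2.38% of members against 1.78%. These were 7 distinct regions, of which 5 were shared by 30 and 90 min, times that share their control pools. The authors' lists from combined pools held 6 of the 7 at 240 min and 1 in untreated males, so a missing call at 240 min does not mean that the peak was gone. Without untreated male pool 2 the 240 min count was 4, and without 240 min pool 2 it was 3. Against hypox females the counts were 5, 3 and 2. The reverse pattern, called in both untreated pools and neither GH pool, held for 1 member region at 30 min, 0 at 90 min and 0 at 240 min, against backgrounds of 5.57%, 5.1% and 2.7%.

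Counted by gene, 3 of the 7 had a GH-only region at 30 min, 2 at 90 min and 1 at 240 min, while 9.21%, 10.3% and 5.82% of the 16223 protein-coding genes with a region in the same window did. An untreated-only region was held by Junb at 30 min and by 0 of 7 genes later, against 19.6%, 16.9% and 9.85% of genes. Since these counts rest on genes picked with the calls at Pim1 and Deptor known, nothing was read from their height over the background.

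**Figure D2:**
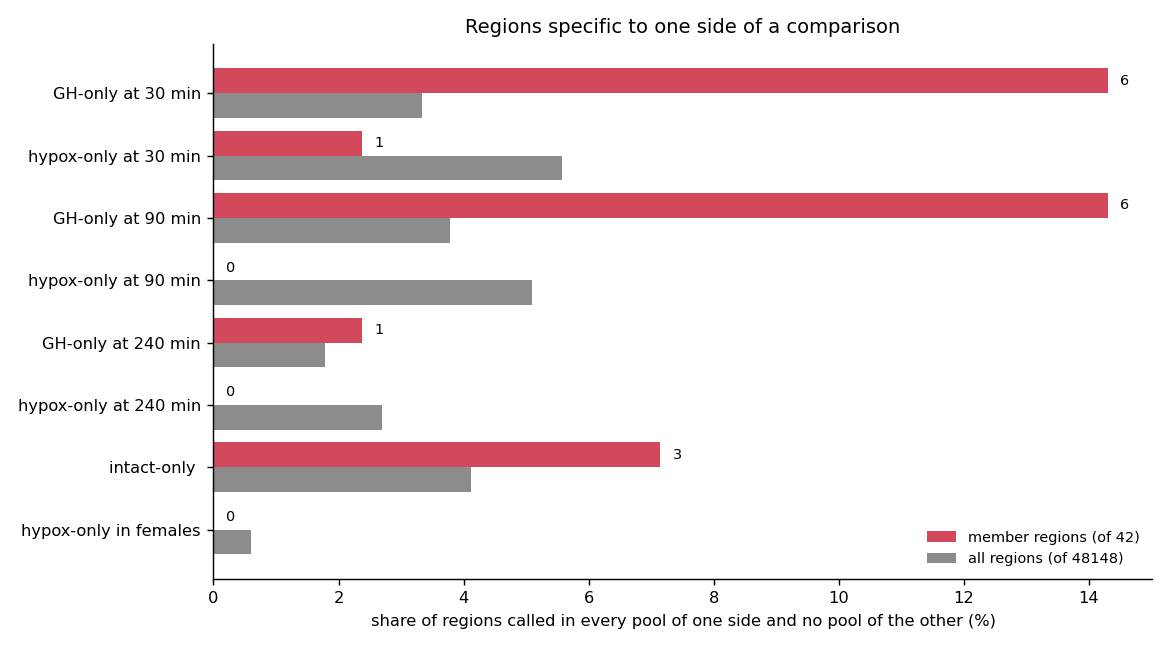
Share of regions (x axis, %) called in every pool of 1 side of a comparison and in no pool of the other (y axis), for the 42 member regions (red, count at bar end) and all 48148 regions (grey). At 30 and 90 min the GH-only share was 14.3% for members and 3.33% and 3.79% for all regions.

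Deptor carried the highest of these peaks. The intronic region +85.8 kb (chr15:55029295-55030088) was called in both 30 min pools at a pileup of 4.80 and 2.63 per 1000000 tags (ppm below) and in both 90 min pools at 8.04 and 8.96. It was called in none of the 10 other libraries, neither intact nor hypox, treated or not. Fold enrichment here was 13.4 and 10.8 at 30 min and 15.3 and 15.96 at 90 min, so both 90 min pools stood above both 30 min pools on either scale. Among peaks of the untreated male pools, 97.5% and 98.7% had a lower pileup in ppm than the 90 min mean of 8.50, so a peak of that height was within reach of both lists. In the authors' lists from combined pools, the region was called with a fold of 3.41 at 240 min and 3.42 in intact females, and not in either hypox group.

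Deptor +41.0 kb (chr15:54984683-54985562), also intronic, was called at 5.14 and 2.03 ppm at 30 min, 3.78 and 3.14 at 90 min, and 1.95 and 1.77 at 240 min. Intact females had it in all 4 pools, at 1.26, 0.831, 2.29 and 1.11 ppm, and no hypox pool without GH had it in either sex. It was thus called in none of the 4 libraries of mice lacking both pituitary and GH and in all 10 others. At 90 min both pools lay above all intact pools, while at 30 and 240 min the ranges overlapped with intact females.

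Near +85.8 kb, Deptor +88.0 kb (chr15:55031627-55032228) was called at 1.47 and 1.14 ppm at 30 min and 2.56 and 2.94 at 90 min. Deptor +65.7 kb (chr15:55009356-55009781) was called at 1.93 and 1.43 at 30 min, at 1.22 and 1.07 at 90 min, and at 1.16 in 1 pool of 240 min. Both were also called in hypox female pool 2, at 2.16 and 1.08, and in 2 and 3 intact female pools, and the second was in the combined list of untreated males with a fold of 4.02. Only their absence from the separate untreated male lists made them GH-only, and against hypox females they were not.

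Among Deptor regions called in every library, +8.6 kb (chr15:54952091-54952915) was higher in both GH pools than in both untreated male pools at each time. Untreated males had 1.38 and 1.48 ppm, and GH-treated males had 4.00 and 2.15 at 30 min, 4.13 and 4.01 at 90 min, and 6.95 and 2.32 at 240 min. Hypox females had 1.96 and 2.16, which overlapped the 30 min pools but lay below both later times. The mean log2 difference from untreated males, on the ppm scale, was 1.04, 1.51 and 1.49 in this order.

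Deptor +27.0 kb (chr15:54970436-54971271), an intronic region called in all 8 male libraries, had 2.18 and 1.34 ppm in untreated males, 4.20 and 2.99 at 30 min, 3.14 and 3.88 at 90 min, and 4.13 and 2.11 at 240 min. In ppm, the 30 and 90 min pools were above the untreated males and the 240 min pools overlapped them. Over the library median and by fold enrichment, both 240 min pools were also above them (log2 difference 0.35 and 0.52). Hypox female pool 2 had 3.18, inside the range of the GH pools, and pool 1 no call. The gene's start region (chr15:54943690-54944432) had 2.64 and 1.84 ppm in untreated males, 2.47 and 2.09 at 30 min, 2.56 and 2.27 at 90 min, and 3.91 and 2.66 at 240 min. It overlapped the untreated range at 30 and 90 min, and both 240 min pools were above it in ppm but overlapped it over the library median (log2 difference 0.55 and 0.11).

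The remaining Deptor regions called in every library, +20.7 kb (chr15:54964207-54965365), +33.6 kb (chr15:54977095-54977615) and +153.6 kb (chr15:55097070-55098012), ranged over the 14 libraries from 2.05 to 6.88, 0.742 to 2.17 and 3.00 to 7.60 ppm. The first overlapped untreated males at all 3 times. The last, beyond the 3′ end of the gene, was higher in both 90 min pools (6.70 and 5.02) than in untreated males (4.25 and 3.00). Hypox females, at 4.64 and 5.29, overlapped these 90 min pools. Deptor +11 kb (chr15:54954489-54955058) was called in all 4 intact pools at 1.48 to 2.63 ppm and in no hypox female pool. In males it was called in 1 untreated pool and in 5 of the 6 GH pools, at 0.89 and 1.02 to 3.33.

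**Figure D3:**
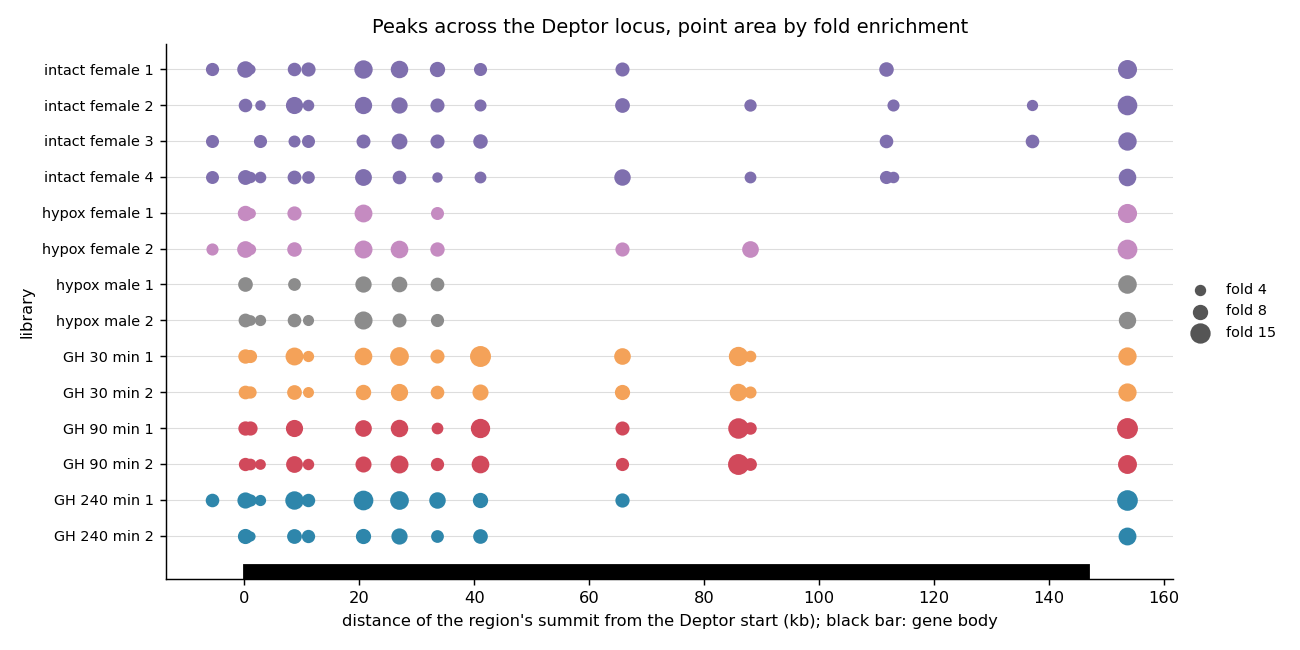
Peaks across Deptor, by distance of the region's summit from the gene start (x axis, kb) in each library (y axis), with point area by fold enrichment and the gene body as a black bar. Points at 85.8 kb are present in the 30 and 90 min pools only, and those at 41.0 kb in all intact and all GH pools.

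Pim1 had 2 GH-only regions. Pim1 -20.2 kb (chr17:29607233-29607793), which lies upstream of the gene and inside Gm16912, a gene annotated on the opposite strand, was called at 3.54 and 1.43 ppm at 30 min and 4.02 and 2.74 at 90 min. No other library called it, which is the same pattern over the 14 libraries as Deptor +85.8 kb. Fold enrichment was 11.02 and 6.87, then 11.1 and 9.46. The combined 240 min list held it with a fold of 4.94, and no other combined list outside 30 and 90 min did.

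Pim1 -2.1 kb (chr17:29625300-29625947) was called in both 90 min pools at 5.71 and 2.81 ppm, and in 1 pool of 30 min at 4.00. It was also present in intact female pools 1 and 3 (3.17 and 2.37) and hypox female pool 2 (3.66), and the first and last of these were inside the range of the 90 min pools. The Pim1 start region (chr17:29627164-29628008) had 7.12 and 5.93 ppm in untreated males, 7.20 and 7.35 at 30 min, 8.79 and 9.23 at 90 min and 13.03 and 7.71 at 240 min. The hypox females, at 9.71 and 10.2, were above both the 30 and the 90 min pools, so the direction depended on the control. Pim1 +22.4 kb (chr17:29649838-29650450), called in every library at 3.20 to 7.53 ppm, overlapped untreated males at all 3 times on that scale. Over the library median, both 30 min pools were above them (log2 difference 0.33). By fold enrichment, both pools of 30 and of 90 min were above them (0.34 and 0.21).

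**Figure D4:**
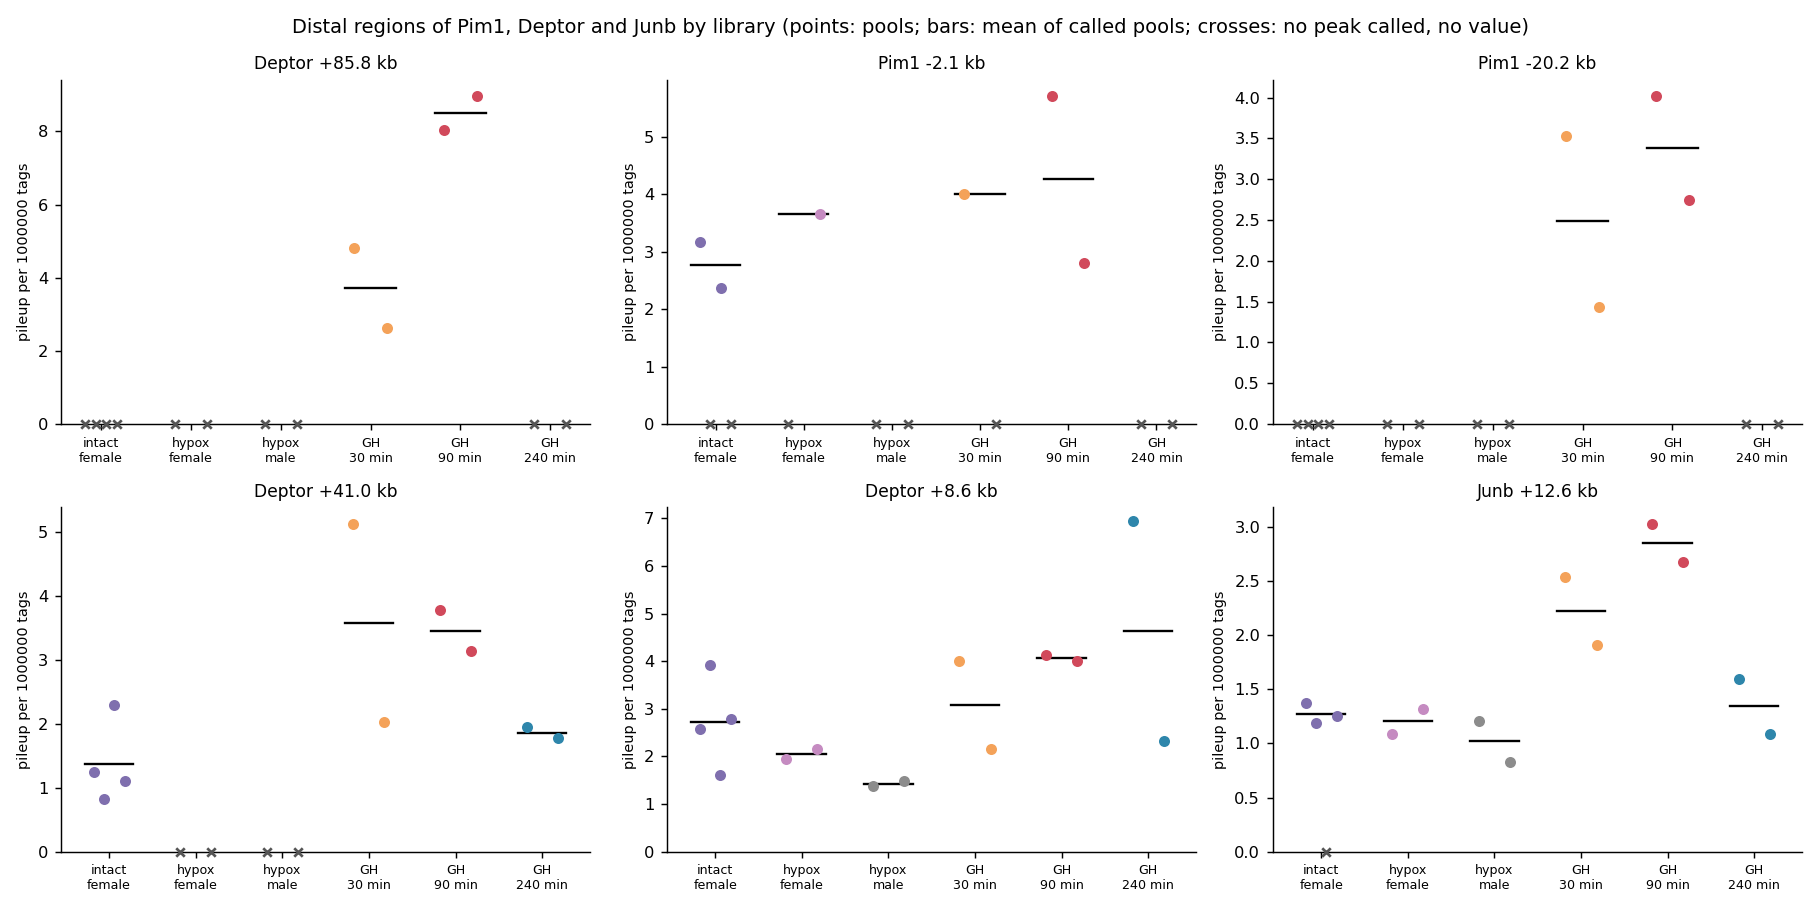
Pileup per 1000000 tags (y axis) by group (x axis) at 6 distal regions of Pim1, Deptor and Junb, with 1 point per pool, a bar for the mean of called pools and crosses for pools with no called peak, which have no value. Pim1 -20.2 kb and Deptor +85.8 kb have points at 30 and 90 min only, and Junb +12.6 kb is highest in the 30 and 90 min pools.

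The AP-1 genes Fos, Jun and Junb had no GH-only region. The Fos start (chr12:86814183-86814962) was called in 13 of 14 libraries, with 5.05 and 4.12 ppm in untreated males, 5.60 and 6.69 at 30 min, 9.72 and 8.16 at 90 min, and 9.41 and 5.18 at 240 min. Every GH pool was above both untreated male pools, with mean log2 differences of 0.42, 0.96 and 0.61. Hypox females without GH had 6.01 and 12.5, the second of which was the highest of all 14 libraries. Against them the log2 difference was -0.50 at 30 min, 0.04 at 90 min and -0.31 at 240 min. Intact females had 4.67, 6.00 and 3.02, with no call in pool 3.

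The Jun start (chr4:94718652-94719791) was open in every library, at 3.82 in intact female pool 3 and 7.96 to 17.3 ppm elsewhere. Untreated males had 12.5 and 9.26, which overlapped the 30 min pools (9.07 and 10.3) and the 240 min pools (17.3 and 10.6). Both 90 min pools, at 13.2 each, were above the untreated pools, with a log2 difference of 0.30, and overlapped them once scaled to the library median. On that scale the 30 and 240 min pools were below the untreated pools, by -0.26 and -0.11. By fold enrichment the GH pools were above them at 30, 90 and 240 min, by 0.22, 0.25 and 0.40.

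Junb +12.6 kb (chr8:87489567-87490292) differed more than the start of its gene. Untreated males had 1.21 and 0.831 ppm, 30 min pools 2.53 and 1.91, 90 min pools 3.03 and 2.68, and 240 min pools 1.59 and 1.09. The 4 pools of 30 and 90 min were above all other libraries that called it, hypox females (1.09 and 1.32) and intact females (1.19 to 1.38) included. The mean log2 difference from untreated males was 1.14 at 30 min and 1.51 at 90 min, and the 240 min pools overlapped them. The region lies downstream of Junb, in exons of Rnaseh2a (a subunit of the nuclease that removes RNA from DNA), and the nearest gene start, 3464 bp from its summit, is that of Prdx2 (an antioxidant peroxiredoxin).

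The Junb start (chr8:87502386-87502898) had 4.94 and 4.33 ppm in untreated males, 4.27 and 5.08 at 30 min, 6.87 and 5.49 at 90 min and 6.95 and 2.66 at 240 min. Only the 90 min pools were both above the untreated pools, and hypox females, at 4.42 and 9.01, lay on either side of them. Junb +9.1 kb (chr8:87493108-87493683), whose summit lies 26 bp from the Prdx2 start, was the 1 region called in both untreated male pools (1.09 and 1.13) and neither 30 min pool. It was called in the combined 30 min list with a fold of 2.75. Junb -10.9 kb (chr8:87513268-87514929), whose summit lies 957 bp from the Hook2 start, was called in all 14 libraries at 1.22 to 6.79. At 90 min its pools (4.43 and 3.88) were above the untreated males (3.21 and 3.59). They overlapped them over the library median, and the log2 difference against hypox females was -0.24. Junb +18.6 kb, called in all 8 male libraries, was higher in both GH pools than in untreated males at each time (log2 difference 0.95, 0.75 and 0.92, or 0.85, 0.55 and 0.48 over the library median). Hypox female pool 2, without GH, had 2.46 ppm, above all GH pools, and intact female pools 3 and 4 had 2.45 and 2.23.

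The Egr1 start (chr18:35019463-35020909) was called in every library. Untreated males had 10.2 and 7.74 ppm, 30 min pools 7.74 and 9.32, 90 min pools 13.1 and 9.70, and 240 min pools 9.48 and 5.39. In ppm, all 3 times overlapped the untreated pools, and hypox females, at 11.7 and 14.7, held the highest value. The summit of Egr1 +4.1 kb (chr18:35024718-35025359) lies just beyond the 3′ end of Egr1 and 191 bp from the start of Gm17507. This region was called in both 30 min pools (1.93 and 2.39) and in all 4 intact female pools (2.51, 2.97, 1.68 and 2.00). No hypox library without GH called it, nor any pool of 90 or 240 min. Its fold enrichment was low, at 3.14 and 3.18 after 30 min, where the lowest fold of any called peak was 2.02 and 2.05.

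At Myc, the start region (chr15:61816423-61817257) had 1.07 ppm in 1 untreated male pool and no call in the other, 1.80 and 1.67 at 30 min, 3.26 and 2.21 at 90 min, and 1.81 and 1.64 at 240 min. The 90 min pools were above every other library that called it. The region at -1.8 kb had 1.55 and 1.04 ppm in untreated males, and both pools of 30 min (2.67 and 1.79) and of 240 min (2.75 and 1.91) were above them. At 90 min, 1 of the pools (1.54) was just below untreated pool 1 (1.55), so that time overlapped in ppm. It also overlapped by fold enrichment, but over the library median both 90 min pools were above the untreated pools (log2 difference 0.31). The highest value in ppm was in intact female pool 4, at 3.57.

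**Figure D5:**
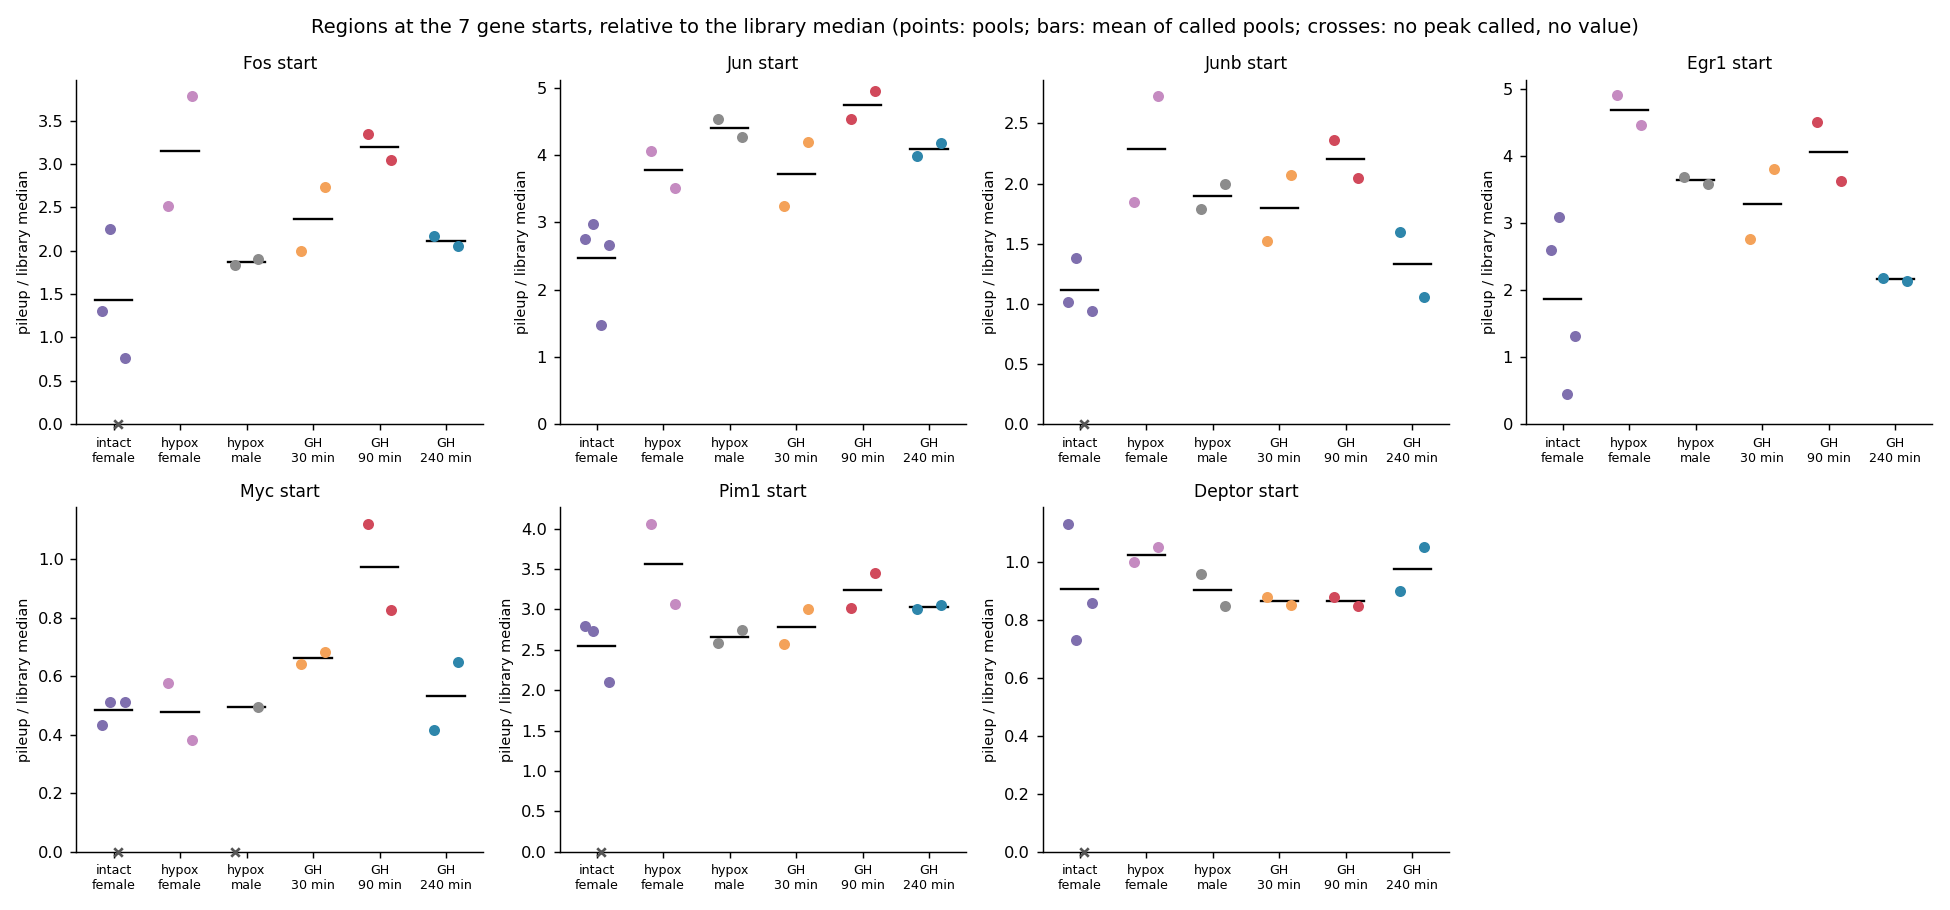
Pileup divided by the library median over regions called in all 14 libraries (y axis, ratio) by group (x axis) at the 7 gene starts, with 1 point per pool, a bar for the mean of called pools and crosses for no called peak. At Fos both 90 min pools lie above both untreated male pools, at Egr1 both 240 min pools lie below them, and hypox females without GH reach or pass the GH pools at Fos and Egr1.

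Peak heights depend on how libraries are scaled. The median pileup in ppm over regions called in all 14 libraries was higher after GH than in untreated males by 0.10, 0.19 and 0.44 on the log2 scale at 30, 90 and 240 min, so heights were also divided by each library's median. On the ppm scale, of the 8 member regions called in all 14 libraries, 1, 4 and 1 were higher in both GH pools than in both untreated male pools at 30, 90 and 240 min, and 0 were lower at any time. The backgrounds were 26.5%, 38.6% and 35.2% higher and 24.2%, 20.1% and 2.56% lower. Single pools moved these counts: 7 were higher at 240 min without 240 min pool 2 and 5 without untreated male pool 1, and 4 were higher at 30 min without 30 min pool 2 or untreated male pool 1. Without untreated male pool 2, 4, 2 and 1 were lower. Over the library median, among the 19 regions called in all 8 male libraries, 7, 10 and 6 were higher, against 21.2%, 27.3% and 20.7% of all such regions. On that scale 2, 1 and 5 were lower, against 38.0%, 33.2% and 38.0%. The median log2 difference over the 19 was 0.03, 0.22 and 0.11, beside -0.15, -0.05 and -0.12 over all 12571 regions called in those 8 libraries.

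Over the library median, the log2 difference of Deptor +8.6 kb was 0.94, 1.32 and 1.05, above 93.2%, 96.2% and 97.9% of regions. That of Junb +12.6 kb was 1.04, 1.32 and -0.04, and that of the Fos start 0.32, 0.77 and 0.18. At 240 min the Egr1 start was lower in both pools than in untreated males by a log2 difference of -0.75, and the Junb start by -0.54. Only 6.36% of regions lay below the first. In ppm and by fold enrichment, both start regions overlapped the untreated males at 240 min. By fold enrichment the log2 difference was -0.020 at the Egr1 start and -0.0090 at the Junb start.

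In intact against hypox females, 3 member regions were called in all 4 intact pools and neither hypox pool, Egr1 +4.1 kb, Deptor +11 kb and Deptor +41.0 kb (7.14%, against 4.11% of all regions). No member region had the reverse pattern (background 0.594%), and 2 had it without hypox female pool 1. The intact-only count was 3 without intact female pool 3 and 6 without hypox female pool 2, and 0 at a −log10 p of at least 10. Egr1 +4.1 kb and Deptor +41.0 kb were thus on both lists, called in intact females and in GH-treated males and not in the untreated hypox pools. The combined hypox female list held Deptor +11 kb with a fold of 3.45. Deptor +111.6 kb was called in 3 intact pools, at 1.35 to 1.61 ppm, and in no other separate list. The combined lists of untreated males and of 30 min also held Deptor +111.6 kb, with a fold of 3.71 and 3.41.

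The call pattern of Deptor +85.8 kb and Pim1 -20.2 kb, both pools of 30 and 90 min and no other library, was shared with 206 regions other than the one named. By mean fold Deptor +85.8 kb ranked first of them at 13.9, and Pim1 -20.2 kb was at rank 9 with 9.62. The next highest lay 10.4 kb from the start of Trit1 (12.3), 30.0 kb upstream of Gclc (11.8) and 10.1 kb upstream of Irf2bp2 (10.9). The pattern of Deptor +41.0 kb was shared with 60 regions, among which it ranked 15, and those of the highest fold were nearest to the starts of U6, Rnf144b and Acsm2. The patterns of Deptor +65.7 kb (5 others), Deptor +88.0 kb (2, nearest E130114P18Rik and Itsn1), Egr1 +4.1 kb (5, led by A730037C10Rik, Gm17721 and Ldlrad2) and Junb +9.1 kb (4, led by Sssca1, Krt23 and Gm17722) were rarer. That of Pim1 -2.1 kb was shared with 0.

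The 200 bp around each summit were scanned on either strand for short consensus sequences. The STAT5 consensus TTCNNNGAA was in 5 of 42 member regions (11.9%, against 9.16% of all regions): Fos start, Junb +12.6 kb, Junb +2.1 kb, Pim1 -2.1 kb and Deptor +85.8 kb. The letters were TTCCGCGAA at both Fos start and Junb +12.6 kb, and TTCCCGGAA at Junb +2.1 kb. Thus 2 of the 7 GH-only regions held it. The CArG box, searched in its 10-letter form, was in 4 (9.52% against 0.984%), at Fos +12.2 kb, Junb +2.1 kb, Junb -1.4 kb and 3 times at the Egr1 start. The AP-1 sequence TGANTCA was in 3 (7.14% against 7.54%) and the E-box CACGTG in 3 (7.14% against 5.4%). The ETS sequence CCGGAAG was in 1 (2.38% against 4.34%), at the Egr1 start. The CRE sequence TGACGTCA and the EGR sequence GCGNGGGCG were in 0 (1.03% and 1.93% of all regions). TGACGTCA does not contain TGANTCA, and median GC was 49.0% in both sets.

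Other genes of the same pathways were read with the same window. Of 21 other immediate-early genes with a region, 4 had a GH-only region at 30 min (Ier2, Klf6, Mcl1 and Zfp36), 2 at 90 min (Klf6 and Mcl1) and 0 at 240 min, and 6 (Egr3, Fosb, Ier2, Ier3, Maff and Mcl1), 2 (Maff and Mcl1) and 3 (Ier3, Maff and Mcl1) had an untreated-only region. Mcl1, an anti-apoptotic BCL2 family member, had its region 10.4 kb from the start with a fold of 7.99 ± 2.70 at 30 min and 8.22 ± 0.94 at 90 min (SD, n = 2), and an untreated-only region 9.6 kb from the start with a fold of 3.45 ± 1.17 in untreated males. Klf6, a zinc finger transcription factor, had 1 located -19.9 kb from its start with 5.32 ± 0.21 and 7.35 ± 1.68. At least 1 pool of 240 min lacked the region at Mcl1 10.4 kb. Its peaks came from 6 libraries in all, so they were not confined to the 6 libraries of GH-treated males. Those at Klf6 -19.9 kb came from 5 libraries.

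Of 11 MYC network genes with a region, 0, 2 and 0 had a GH-only region at 30, 90 and 240 min, and 5, 5 and 1 an untreated-only region. Of 12 PIM kinase and mTOR complex genes, 1, 3 and 1 had a GH-only region and 2, 2 and 2 an untreated-only region. Rptor, which encodes a scaffold subunit of mTOR complex 1, had its region 28.5 kb inside the gene with a fold of 5.66 ± 0.15 at 30 min and 8.04 ± 1.41 at 90 min, and at 30 min also 2 untreated-only regions, 310.9 and 313.7 kb from its start, with 4.50 ± 0.19 and 4.27 ± 0.82. Of 12 ERK pathway and ternary complex factor genes, 1, 2 and 2 had a GH-only region and 2, 3 and 3 an untreated-only region. Elk3, a ternary complex factor that acts with serum response factor, had a region 55.7 kb from its start at 9.39 ± 2.08 and 10.5 ± 0.27. Peaks were present in 9 libraries at this Elk3 region and in 7 at Rptor 28.5 kb, so neither was confined to GH-treated males. In each list both directions occurred, and the gene backgrounds given above apply.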

How the data were processed

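Genomic DNA fragments released by DNase I from liver nuclei were selected by size and sequenced, per the labels' protocols. Bowtie2 and the mm9 build are named in the submitters' processing notes. The authors ran MACS2 2.1.0.20150731 on every library and on the combined tags of every group, per the file headers. The headers give no control library, a q-value limit of 0.05, retained duplicates, 40 bp tags, tags shifted by -100 bp and then extended to 200 bp. The pileup signal, the fold enrichment (a ratio to local background) and the −log10 p and −log10 q values of each peak are as the authors deposited them.

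Peaks on autosomes and X were merged at 1 bp overlap, and a region was called in a library if a peak of it overlapped. The highest pileup in a region was scaled to 1000000 tags of the library (ppm), and alternatively by the library median over regions called in all 14 libraries. Absence of a call means no detection at that depth and threshold, not closed chromatin. Genes came from GENCODE vM1 and bases from the mm9 assembly, and coordinates are 1-based. The sequence search was checked on made sequences. No model or test was run, because peak values exist only where a peak was called and every group except intact females holds 2 pools. The members and lists were chosen with earlier results of these data known. All 7 genes are named, and regions are given with coordinates if within 1 kb of a member gene's start, specific to 1 side of a comparison, or called in all 14 libraries. For each region specific at 30 or 90 min, up to 3 regions with the same calls and the highest mean fold are named, except for Deptor +65.7 kb, where they are not reported here. Other regions described at Deptor, Junb, Myc and Pim1 were chosen after their values were seen. Alternatives were a stricter peak threshold (−log10 p of at least 10), lists of equal length, a peak covering at least 50% of the region, hypox females as controls, other scalings, fold enrichment, and leaving out each pool. Software was numpy 2.4.6, pandas 2.3.3 and matplotlib 3.10.9.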

Additional observations from a re-analysis of the deposited data

Results flagged for a closer look

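At the Junb start, the pileup over the library median moved in opposite directions at 90 and 240 min. Both 90 min pools (2.36 and 2.05) were above both untreated male pools (1.79 and 2.00), and both 240 min pools (1.60 and 1.05) were below them. The log2 difference of 240 min minus 90 min was -0.76. In ppm the 240 min pools (6.95 and 2.66) overlapped the untreated male pools (4.94 and 4.33), and they also overlapped them by fold enrichment. Hypox females, at 1.85 and 2.73 over the library median, lay on either side of the 90 min pools. The difference between the times was not tested, and both times share their controls.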

How the results depend on the processing

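All counts below are of member regions. GH-only regions at 30 and 90 min (6 each) stayed within 1.5 times under every alternative run, except that against hypox females 3 were GH-only at 90 min. Leaving out 1 pool in turn gave 6 to 9 GH-only regions at 30 min, 6 to 8 at 90 min and 1 to 4 at 240 min (3 without 240 min pool 2, 4 without untreated male pool 2), and 1 to 2, 0 to 2 and 0 to 3 untreated-only regions (most without untreated male pool 1, 90 min pool 1 and 240 min pool 1). Intact-only regions ranged from 3 to 6 (6 without hypox female pool 2) and hypox-only regions in females from 0 to 2 (2 without pool 1 of them). With −log10 p of at least 10, untreated-only regions at 30 min were 0 and intact-only regions 0. With lists of equal length they were 0 and 1, GH-only regions at 240 min were 2, and hypox-only regions in females 1. With peaks covering 50% of a region, untreated-only regions at 90 min were 1, intact-only regions 0 and hypox-only regions in females 1. Against hypox females, GH-only regions at 240 min were 2.

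Counts with higher pileup (1, 4 and 1 at 30, 90 and 240 min in ppm) were 2 and 2 at 30 and 90 min over the library median, 3 and 2 at 30 and 240 min by fold enrichment, and 0 and 2 at 30 and 90 min against hypox females. Chosen after seeing the data, the promoter median gave 2, 2 and 2. Regions called in all 8 male libraries gave 7, 12 and 6 in ppm and 7, 10 and 6 over the library median, and they are 19 rather than 8. Counts with lower pileup (0 at each time) were 1, 1 and 3 over the library median, 2 and 1 at 30 and 240 min against hypox females, and 1 at 240 min over the promoter median. In all 8 male libraries they were 1 at 30 min in ppm and 2, 1 and 5 over the library median. Leaving out 1 pool gave 1 to 4, 5 to 6 and 1 to 7 higher (7 without 240 min pool 2, 5 without untreated male pool 1) and 0 to 4, 0 to 2 and 0 to 3 lower (at 30 min 2 without either GH pool and 4 without untreated male pool 2, at 90 min 1 without 90 min pool 2, at 240 min 3 without 240 min pool 1).

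Of single regions, 9 differences reversed, and the cause was not tested. Against hypox females, the log2 difference was -0.50 and -0.31 at the Fos start at 30 and 240 min. It was -0.040, -0.057 and -0.24 at 90 min at the Junb start, Junb -1.4 kb and Junb -10.9 kb, and -0.45 and -0.14 at the Pim1 start at 30 and 90 min. By fold enrichment, the Pim1 start was at -0.0088 and -0.026 at 30 and 90 min. No paired analysis was run, and the labels give no pairing of pools between groups. Depth limits the calls, since a region without a peak has no value, and the combined lists held 6 of the 7 GH-only regions at 240 min.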
